A study of Mus musculus with 8 samples.

Results

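The NR4A and EGR families are transcription factors whose genes are switched on within minutes of antigen receptor stimulation, and 6 of them were examined here: Nr4a1, Nr4a2, Nr4a3, Egr1, Egr2 and Egr3. They were chosen by symbol, with earlier results of these data known, from tables of 14042 genes, and all 6 were listed in every table. The tables come from mouse RNA sequencing of 8 libraries, with 4 groups of n = 2. TFH KO libraries are CXCR5+ PD1 high CD4 cells of donors lacking C5aR1, a receptor for complement C5a (genotype C5aR1-/-), and this sort marks T follicular helper (TFH) cells. They were recovered from the spleens of (bxd)F1 recipients on day 7 after injection of donor splenocytes from which CD8 cells had been removed. TFH WT libraries are the same sort after injection of wild type (WT) splenocytes. Naive KO and naive WT libraries are CD4 T cells of either genotype sorted as CD62L high and CD44 low and processed side by side as controls. The labels name no Cre or other restriction of the C5aR1 loss to a cell type, and no C5aR1 loss in the recipients. Age, sex and strain of the donors are not stated.

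An occupied T cell receptor raises calcium and activates RAS and the kinase ERK. Calcium acts through calcineurin, NFAT and MEF2 factors, which help drive the NR4A genes. ERK acts through serum response factor and its ETS-type partners, which help drive EGR genes such as Egr1. These routes are not exclusive to either family. The NR4A proteins are orphan nuclear receptors that bind DNA without a known physiological ligand and restrain T cell activation, and NR4A1 (Nur77) is widely used as a reporter of receptor signalling. The EGR proteins carry zinc fingers. EGR1 supports early activation, while EGR2 and EGR3 switch on genes of T cell unresponsiveness and are also needed for a full TFH response in mice.

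Upstream DNA of the members was looked up because all NR4A genes were higher in TFH than in naive libraries of either genotype, though by different amounts. The RefSeq promoter table (GRCm38.p6) held windows for Nr4a1, Nr4a2, Nr4a3 and Egr2, and not for Egr1 and Egr3. The genes lie on chromosomes 15, 2, 4 and 10 in the order just given, and the stretches below are the 250 bases before a transcription start. That start is also the start of a principal GENCODE vM21 transcript for Nr4a1, Nr4a2 and Egr2, and for Nr4a3 the 98 bases before its first GENCODE exon are shown. Capitals mark TGACG or its complement CGTCA, the core of the cyclic AMP response element (CRE) to which CREB and ATF factors bind.
Nr4a1, chr15:101266596-101266845, plus strand: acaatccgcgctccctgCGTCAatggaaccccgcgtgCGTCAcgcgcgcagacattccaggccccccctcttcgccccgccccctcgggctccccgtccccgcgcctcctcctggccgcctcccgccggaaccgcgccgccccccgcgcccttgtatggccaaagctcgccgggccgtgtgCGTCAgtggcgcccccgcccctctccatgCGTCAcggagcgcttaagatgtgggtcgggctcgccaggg
Nr4a2, chr2:57124004-57124253, minus strand: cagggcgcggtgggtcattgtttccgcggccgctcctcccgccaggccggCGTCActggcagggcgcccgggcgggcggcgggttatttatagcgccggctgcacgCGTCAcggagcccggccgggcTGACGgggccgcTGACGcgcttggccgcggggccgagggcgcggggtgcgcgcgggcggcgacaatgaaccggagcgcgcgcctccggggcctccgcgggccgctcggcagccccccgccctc
Nr4a3, chr4:48045055-48045152, plus strand: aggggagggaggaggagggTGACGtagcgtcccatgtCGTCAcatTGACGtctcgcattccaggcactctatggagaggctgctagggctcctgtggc
Egr2, chr10:67537619-67537868, plus strand: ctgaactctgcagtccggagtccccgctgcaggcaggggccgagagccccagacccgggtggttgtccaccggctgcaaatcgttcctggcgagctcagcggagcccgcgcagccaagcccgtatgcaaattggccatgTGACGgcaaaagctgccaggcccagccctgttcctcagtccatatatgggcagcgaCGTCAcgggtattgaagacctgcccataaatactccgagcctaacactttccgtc

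The CRE core occurred 4 times in the 250 bases upstream of each of Nr4a1, Nr4a2 and Nr4a3, counted on either strand, and 2 times upstream of Egr2. The table has 5 windows for Egr2, with 0 to 2 cores each, and the one shown was taken for its match to the principal transcript. For Nr4a3, 3 of the 4 lie in the stretch shown. The other, at -147 from the RefSeq start, lies past the start of its first GENCODE exon. It is thus upstream of the RefSeq start but not of the GENCODE gene, and that RefSeq start matches no principal transcript. Of 32851 promoter windows of this length, 17.8% held at least 1 core and 45, or 0.137%, held 4 or more. Among the 9178 windows with a GC content of at least 60% these shares were 27.1% and 0.37%. At least 3 cores were held by 0.688% of all windows. The count of 4 was taken up after the members' counts had been seen, and windows of a gene with several starts overlap. The stretches of Nr4a1, Nr4a2, Nr4a3 and Egr2 shown had GC contents of 74.4%, 80.0%, 61.2% and 61.6%.

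The remaining 9 motifs were searched on either strand in the same windows. The CArG box, to which serum response factor binds, occurred 1 time upstream of Egr2 and in 1.47% of all windows. The SP1 box GGGCGG occurred 3, 4 and 1 times upstream of Nr4a1, Nr4a2 and Nr4a3 and in 32.7% of all windows. The ETS core CCGGAA occurred 1 time upstream of Nr4a1 (12% of all windows), and TATAAA 1 time upstream of Nr4a2 (12.4%). The full CRE TGACGTCA (1.55% of all windows), the EGR site GCGTGGGCG (0.536%), the NR4A site AAAGGTCA (1.34%), the NFAT core GGAAAA (20.4%) and the AP-1 site TGANTCA (6.75%) were in none of the 4 windows. A match is a string of letters, not a site shown to be bound.

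**Figure D1:**
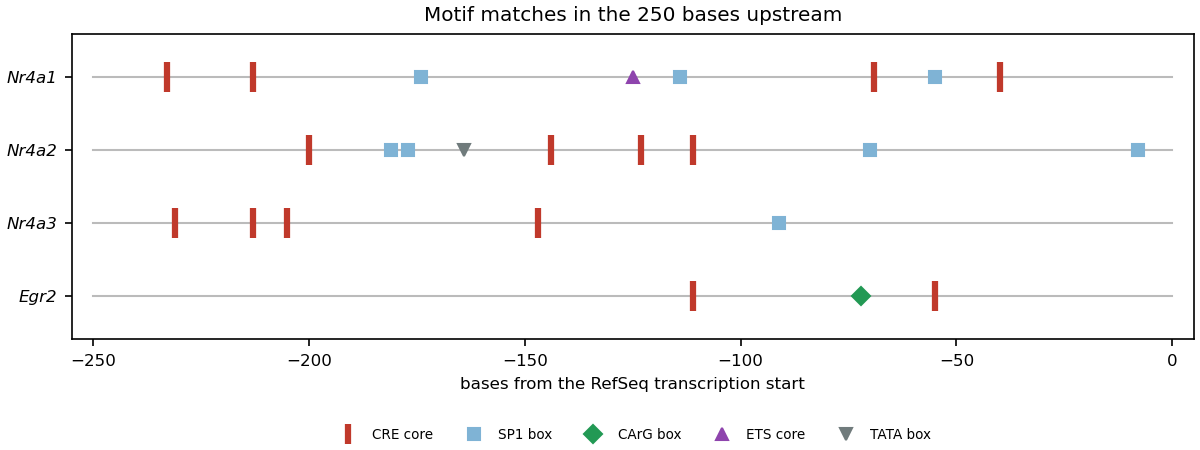
Matches to 5 of the motifs in the 250 bases upstream of Nr4a1, Nr4a2, Nr4a3 and Egr2, by distance in bases from the RefSeq transcription start. Nr4a1, Nr4a2 and Nr4a3 each have 4 CRE cores, spread over different distances, and Egr2 has 2 with a CArG box between them. The Nr4a3 core at -147 lies past the start of the first GENCODE exon.

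Values below are the deposited log2 values, already quantile normalised across libraries, and differences are log2 differences of group means ± standard error (SE) with n = 2 libraries per group. A gene was called at a limma p adjusted over all 14042 genes below 0.05. The sequencing depth is unknown, so a level near the bottom of the table cannot be told from a poorly counted one. Cd4 was 15.48 to 15.69 in all 8 libraries. The sort markers followed the labels in part at the RNA level: Pdcd1 was 11.88 to 12.85 in TFH-labelled and 10.80 to 11.97 in naive-labelled libraries, while Cxcr5 was 10.85 to 11.56 against 11.56 to 12.45 and Cd44 was 11.97 to 12.11 against 12.53 to 13.04. Naive KO replicate 1 had Xist at 14.61 and the Y-linked Ddx3y at 5.67, and the other 7 libraries had Xist at 4.44 to 5.56 and Ddx3y at 12.54 to 13.16, so the naive KO libraries hold RNA of opposite sexes and are not the same animal. Replicate 2 of both TFH groups carried more B cell RNA than replicate 1. The mean of 19 B cell markers was 8.01 and 11.50 in TFH KO replicates 1 and 2, 8.13 and 10.11 in those of TFH WT, and 9.01 to 10.19 in naive-labelled libraries. C5ar1 was not analysed here, so the genotype was not checked on the deleted gene.

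The 3 NR4A genes rose in TFH-labelled libraries of either genotype, Egr1 rose less, and Egr2 and Egr3 were not called. Averaged over genotypes, TFH-labelled libraries exceeded naive-labelled ones 14.7-fold in Nr4a2, 5.86-fold in Nr4a1, 2.63-fold in Nr4a3 and 1.83-fold in Egr1. Thus 4 of 6 members were called higher and none lower, where limma called 18.3% of all genes higher and 19.8% lower in this comparison. Within KO 4 of 6 were called higher and none lower, against 9.12% and 10.4% of all genes. Within WT 4 of 6 were called higher and none lower, against 12.6% and 13.7% of all genes. The same 4 members had all TFH-labelled libraries above all naive-labelled ones, where 38.5% of all genes had labels that did not overlap in either direction. Members were chosen with earlier results of these data known, so these counts beside all genes are a description and not a test. No member was called between KO and WT.

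Nr4a1 (ENSMUSG00000023034.7), which encodes Nur77, lies on the plus strand of chromosome 15 from 101254269 to 101274795 in GRCm38. It was 14.53 and 14.38 in TFH KO libraries and 14.22 and 14.29 in TFH WT libraries. It was 11.83 and 11.77 in naive KO libraries and 11.76 and 11.86 in naive WT libraries. The 4 TFH-labelled libraries all lay above the 4 naive-labelled ones, with a gap of 2.36 between the nearest. The rise was 2.66 ± 0.10 in KO (adjusted p = 2.02e-08 by limma) and 2.45 ± 0.10 in WT (adjusted p = 5.13e-08 by limma). Nr4a1 had the smallest SE of the 6 members, and its rise over both genotypes was the 84th largest among 14042 genes.

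Nr4a2, which encodes Nurr1, lies on the minus strand of chromosome 2 from 57106830 to 57124003. It was 10.28 and 10.89 in TFH KO libraries and 10.37 and 10.76 in TFH WT libraries. It was 6.66 and 6.33 in naive KO libraries and 6.71 and 7.09 in naive WT libraries. All 4 naive values lay below 8.14, the 25th percentile of all values, and all 4 TFH values above it. The rise was 4.09 ± 0.24 in KO (adjusted p = 1.10e-06 by limma) and 3.67 ± 0.24 in WT (adjusted p = 2.86e-06 by limma), the 17th largest rise of all genes over both genotypes. The size of the fold rests on the low naive values: with the 25th percentile of all values added on the linear scale as a pseudocount, the difference over both genotypes was 2.22 in place of 3.88 and was still called.

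Nr4a3, which encodes NOR-1, lies on the plus strand of chromosome 4 from 48045153 to 48086447. It was 9.95 and 10.00 in TFH KO libraries and 9.38 and 9.91 in TFH WT libraries. It was 8.77 and 8.34 in naive KO libraries and 8.29 and 8.26 in naive WT libraries. The labels again did not overlap, with a gap of 0.62 between the lowest TFH-labelled library, TFH WT replicate 1, and the highest naive-labelled one, naive KO replicate 1. The rise was 1.42 ± 0.20 in KO (adjusted p = 0.00056 by limma) and 1.37 ± 0.20 in WT (adjusted p = 0.000551 by limma). With the same pseudocount the difference over both genotypes was 0.92 in place of 1.39.

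Egr1 on chromosome 18, also known as Zif268 or Krox-24, was 12.46 and 13.00 in TFH KO libraries and 12.48 and 12.90 in TFH WT libraries. It was 11.88 and 11.83 in naive KO libraries and 11.93 and 11.71 in naive WT libraries. The labels did not overlap, with a gap of 0.52, and replicate 2 was the higher in either TFH group. The rise over both genotypes was 0.87 ± 0.14 (adjusted p = 0.00181 by limma). Within one genotype the call was less firm, at 0.88 ± 0.20 in KO (adjusted p = 0.0185 by limma) and 0.87 ± 0.20 in WT (adjusted p = 0.015 by limma). In WT it was lost without TFH WT replicate 2 (0.66, adjusted p = 0.0714) or naive WT replicate 2 (0.76, adjusted p = 0.0858). In KO it was lost without TFH KO replicate 2 (0.61, adjusted p = 0.0517), naive KO replicate 1 (0.91, adjusted p = 0.0967) or naive KO replicate 2 (0.85, adjusted p = 0.12), and in both genotypes with libraries centred on ribosomal protein genes (0.94 in KO and 0.86 in WT).

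Egr2, also known as Krox-20, lies on the plus strand of chromosome 10 from 67535475 to 67542188. It was 10.19 and 10.55 in TFH KO libraries and 10.60 and 10.63 in TFH WT libraries. It was 10.09 and 10.49 in naive KO libraries and 10.50 and 9.74 in naive WT libraries. In KO the labels overlapped, whereas 58.2% of all genes had KO libraries that did not, with a difference of 0.08 ± 0.26 and a 95% interval of -0.53 to 0.69 (adjusted p = 0.876 by limma). In WT both TFH libraries lay above both naive ones, a separation that 65% of all genes had in WT in one direction or the other, with a difference of 0.50 ± 0.26 and an interval of -0.11 to 1.11 (adjusted p = 0.21 by limma). The low value of naive WT replicate 2 bears on this: without naive WT replicate 1 the difference was 0.88 and was called (adjusted p = 0.0165), and without naive WT replicate 2 it was 0.12.

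Egr3 lies on the plus strand of chromosome 14 from 70077203 to 70082614. It was 10.17 and 10.76 in TFH KO libraries and 10.27 and 10.25 in TFH WT libraries. It was 10.77 and 10.55 in naive KO libraries and 10.66 and 10.49 in naive WT libraries. TFH KO replicate 2 stood with the naive-labelled libraries and the other 3 TFH-labelled libraries below all 4 of them. The difference over both genotypes was -0.26 ± 0.12 with a 95% interval of -0.53 to 0.02 (adjusted p = 0.133 by limma). Without TFH KO replicate 2 it was called, at -0.40 (adjusted p = 0.00954).

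**Figure D2:**
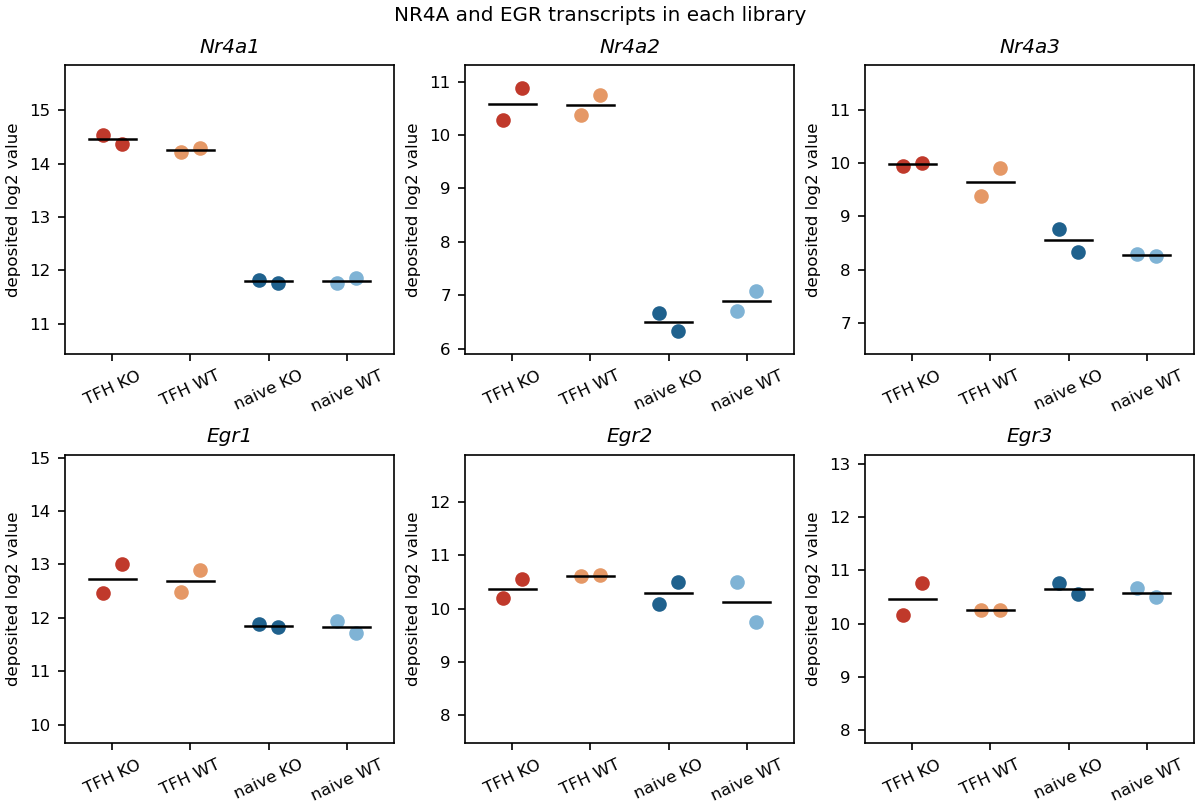
Deposited log2 value of each member in each of the 8 libraries (points) with the group mean (line), in TFH KO, TFH WT, naive KO and naive WT, on axes of equal span. Nr4a1, Nr4a2, Nr4a3 and Egr1 separate the labels, with gaps of 2.36, 3.19, 0.62 and 0.52, while the libraries of Egr2 and Egr3 overlap.

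Sizes of change within a family depended on the scale. On the deposited scale the intervals of the difference over both genotypes did not overlap between the NR4A genes, at 3.50 to 4.25 for Nr4a2, 2.39 to 2.71 for Nr4a1 and 1.08 to 1.70 for Nr4a3. Those of the EGR genes were 0.55 to 1.2 for Egr1, -0.14 to 0.72 for Egr2 and -0.53 to 0.02 for Egr3. The order of Nr4a2 and Nr4a1 turned with the pseudocount added, to 2.29 for Nr4a2 and 2.56 for Nr4a1 in KO and 2.16 and 2.36 in WT. Differences between genes were not tested, since values of the members come from the same libraries. Centring each library on its 15 T cell identity markers, of which 6 were themselves called lower in the TFH-labelled libraries, raised all TFH minus naive differences by 0.22 and moved the share of higher genes among those called from 47.9% to 80.1%. On that scale the difference over both genotypes was 2.77 for Nr4a1, 4.10 for Nr4a2, 1.61 for Nr4a3 and 1.09 for Egr1, all still called, and 0.51 for Egr2, which was then called (adjusted p = 0.0498).

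The comparison of KO with WT donors asks whether C5aR1 bears on these genes. Between TFH KO and TFH WT libraries limma called no gene at all (0%), against 506 genes (3.6%) at an unadjusted p below 0.05, and no member had an adjusted p below 1. The difference was 0.20 ± 0.10 for Nr4a1, 0.02 ± 0.24 for Nr4a2 and 0.33 ± 0.20 for Nr4a3. It was 0.04 ± 0.20 for Egr1, -0.25 ± 0.26 for Egr2 and 0.21 ± 0.18 for Egr3. The 95% intervals ran from -0.02 to 0.42 for Nr4a1, from -0.51 to 0.55 for Nr4a2 and from -0.11 to 0.77 for Nr4a3, so a rise of Nr4a1 above 0.42 or of Nr4a3 above 0.77 lies outside them. For Egr1, Egr2 and Egr3 they ran from -0.42 to 0.50, from -0.86 to 0.36 and from -0.18 to 0.60. Both TFH KO libraries lay above both TFH WT libraries in Nr4a1 and Nr4a3 and below them in Egr2, and 33% of all genes had such non-overlapping libraries.

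Between naive KO and naive WT libraries limma called 10 genes (0.0712%), against 2.53% at an unadjusted p below 0.05, and no member was among the 10. The difference was -0.01 ± 0.10 for Nr4a1, -0.40 ± 0.24 for Nr4a2 and 0.28 ± 0.20 for Nr4a3. It was 0.03 ± 0.20 for Egr1, 0.17 ± 0.26 for Egr2 and 0.08 ± 0.18 for Egr3. Both naive KO libraries lay above both naive WT libraries in Nr4a3 and below them in Nr4a2, where 26.4% of all genes had libraries that did not overlap. For Nr4a3 the KO mean was higher on either label, by 0.33 and 0.28, without passing the test on either. The nearest libraries were close, at 9.95 in TFH KO and 9.91 in TFH WT, and at 8.34 in naive KO and 8.29 in naive WT. The share of all genes separated in the same direction on both labels was not counted.

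The interaction, which asks whether the TFH minus naive difference itself differed between KO and WT, called 2 genes (0.0142%), against 4.37% at an unadjusted p below 0.05, and no member. It was 0.21 ± 0.14 for Nr4a1, 0.42 ± 0.34 for Nr4a2 and 0.05 ± 0.28 for Nr4a3. It was 0.01 ± 0.28 for Egr1, -0.42 ± 0.37 for Egr2 and 0.13 ± 0.25 for Egr3. Adjusted p-values of the members were 0.997 to 0.999 by limma. The intervals for Nr4a2, -0.33 to 1.17, and Egr2, -1.29 to 0.44, are wide enough to hold a difference of 1.

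**Figure D3:**
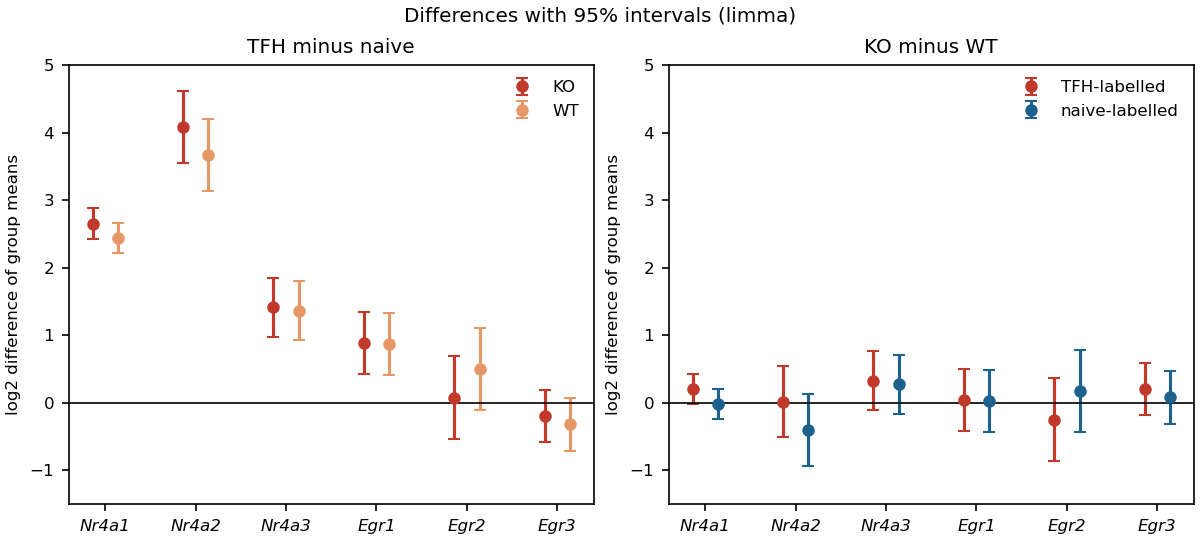
Log2 difference of group means for each member with its 95% interval from limma, as TFH minus naive within KO and WT (left) and as KO minus WT within TFH-labelled and naive-labelled libraries (right). Nr4a1, Nr4a2, Nr4a3 and Egr1 lie above 0 on the left in either genotype, and all intervals on the right include 0.

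Other cell types in the sorts could carry these transcripts, since B cells and myeloid cells also express NR4A and EGR genes. In TFH KO replicates 2 and 1 Nr4a2 was 10.89 and 10.28 and Egr1 13.00 and 12.46, and in TFH WT replicates 2 and 1 Nr4a2 was 10.76 and 10.37 and Egr1 12.90 and 12.48, so both genes were higher in the replicate with more B cell RNA. Replicate 2 exceeded replicate 1 by 0.05 in KO and 0.52 in WT for Nr4a3 and by 0.35 and 0.03 for Egr2. Replicate 2 minus replicate 1 was -0.15 in KO and 0.07 in WT for Nr4a1 and 0.59 and -0.01 for Egr3, so the sign differed between the groups for both of these genes. Replicate 2 was also higher in myeloid, CD8 and NK markers. The myeloid mean was 8.77 and 7.64 in TFH KO replicates 2 and 1 and 8.31 and 7.25 in those of TFH WT. The 19 measured of 22 B cell markers summed to 9528 to 112799 on the linear scale in TFH KO, 11233 to 41520 in TFH WT, 38551 to 40908 in naive KO and 21304 to 43693 in naive WT libraries. None of the 19 was called between the labels and none stood at the lowest value of the tables. In replicate 1 of the TFH groups, where the B cell mean was below that of every naive-labelled library, Nr4a1, Nr4a2, Nr4a3 and Egr1 were above every naive-labelled library. The part of B cell RNA in the members' levels was not tested beyond these values and the refits that follow. Of the TFH-labelled libraries only TFH WT replicate 2 had a B cell mean within the naive-labelled range, so the refits cannot settle that part. With the B cell mean as a covariate the difference over both genotypes was 2.55 for Nr4a1, 3.91 for Nr4a2, 1.41 for Nr4a3 and 0.90 for Egr1, all called. Without replicate 2 of both TFH groups it was 2.57, 3.63, 1.25 and 0.63 for the same 4 genes, all called, and without naive KO replicate 1, the library apart in Xist, it was 2.57, 3.96, 1.5 and 0.89, all called.

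Myeloid and cytotoxic markers were lower in the TFH-labelled libraries. Of 26 myeloid markers 10 were called lower and 1 higher over both genotypes, and they summed to 15832 to 24060 in TFH KO, 15366 to 19840 in TFH WT, 34155 to 40631 in naive KO and 35966 to 80264 in naive WT libraries. Of 15 CD8 and NK markers 8 were called lower and none higher. With the myeloid mean as a covariate, an alternative added after seeing the data, the difference over both genotypes was 2.46 for Nr4a1, 4.11 for Nr4a2, 1.62 for Nr4a3 and 1.39 for Egr1. Egr2 was then called at 0.84 (adjusted p = 0.022). The myeloid mean was below 8.8 in all 4 TFH-labelled and above 9.1 in all 4 naive-labelled libraries, so the covariate and the label cannot be told apart. In bulk libraries more cells that express a gene and more RNA per cell cannot be told apart either.

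**Figure D4:**
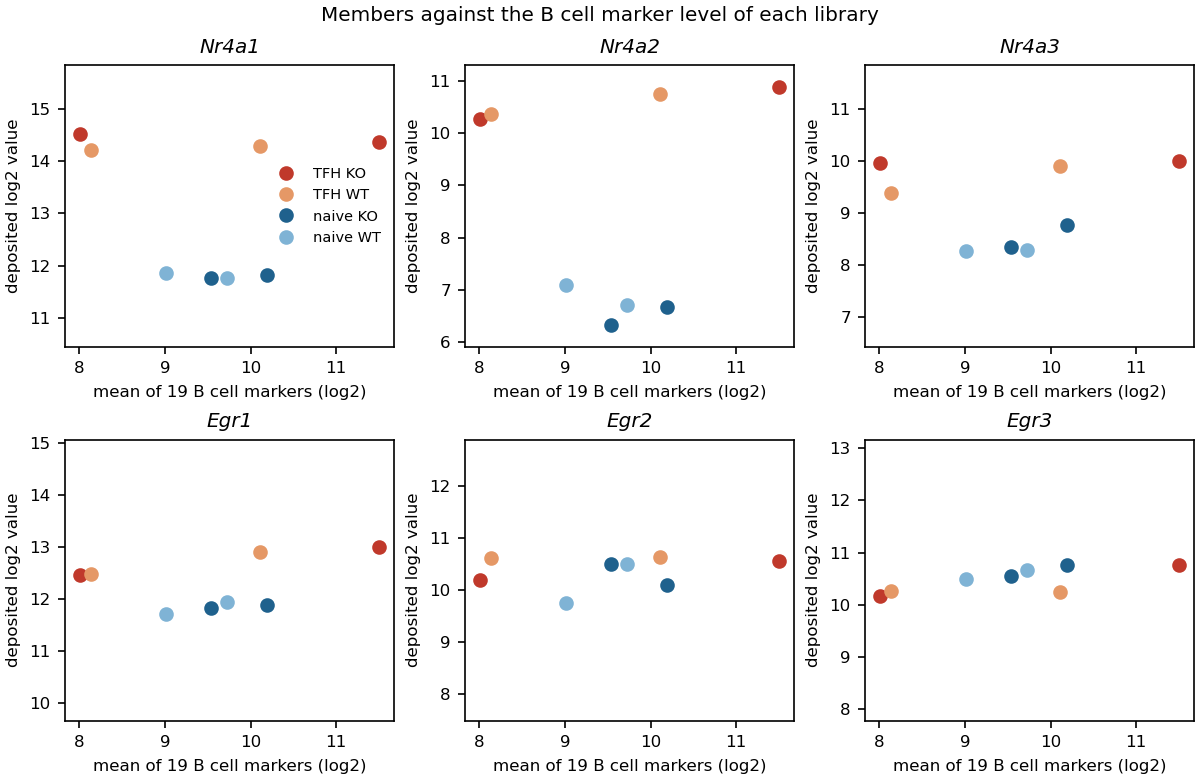
Deposited log2 value of each member against the mean of 19 B cell markers in the same library, coloured by group. Nr4a1, Nr4a2, Nr4a3 and Egr1 are higher in all TFH-labelled libraries, at B cell means of 8.01, 8.13, 10.11 and 11.50, than in all naive-labelled ones. The naive-labelled libraries span B cell means of 9.01 to 10.19, and only TFH WT replicate 2, at 10.11, lies within that range.

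Other genes that respond to the same signals were read beside the members from lists, also chosen with earlier results known. Of 24 measured immediate early genes, such as those of the FOS, JUN and KLF families, 23 were called higher over both genotypes and none lower, with a median difference of 2.34 against 0.0015 over all genes. The transcription factor gene Maff rose by 5.61 ± 0.11, Klf4 by 4.92 ± 0.12 and Dusp1, a phosphatase of MAP kinases, by 3.06 ± 0.07. Egr1, Egr2 and Egr3, immediate early genes themselves, were below that median, as was Nr4a3, and Nr4a1 and Nr4a2 were above it. Of 20 genes of the immediate early list with a promoter window, members apart, 11 held at least 1 CRE core and 0 held 4 or more. The largest count in a window was 2 for Maff, 1 for Klf4 and 3 for Dusp1. Whether the cores bear on the rise of any gene was not tested. Of 20 receptor-induced activation genes 13 were called higher and 2 lower, with a median of 0.83. Tnfaip3, which encodes the NF-kB inhibitor A20, rose by 5.28 ± 0.08, the early activation receptor gene Cd69 by 2.46 ± 0.07 and Tagap by 1.49 ± 0.08.

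Genes that carry the signal to the members went in both directions. The shares called are read against the 38.1% of all genes called in either direction over both genotypes. Of 22 genes of proximal T cell receptor signalling 4 were called higher and 4 lower, with a median of -0.02. The adaptor gene Bcl10 rose by 0.60 ± 0.08, while the kinase gene Tec had a difference of -0.62 ± 0.11. Of 17 genes of the calcium and NFAT arm 5 were called higher and 2 lower, with a median of 0.05. Ppp3cc, a catalytic subunit of calcineurin, rose by 1.48 ± 0.08, whereas Ppp3ca, which encodes another catalytic subunit, was at -0.62 ± 0.07 and the calcium sensor gene Stim1 at -0.44 ± 0.08. Of 18 genes of the RAS and ERK arm 5 were called higher and 6 lower, with a median of 0.11. Spry1, a feedback inhibitor of this arm, rose by 1.98 ± 0.13, and the kinase genes Rps6ka3 and Mapk3, which encodes ERK1, were at -0.88 ± 0.08 and -0.60 ± 0.07.

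Of 16 genes of factors that switch on early genes 5 were called higher and 1 lower, with a median of 0.13. The ETS factor gene Ets2 rose by 1.54 ± 0.10, the MEF2 factor gene Mef2b by 1.24 ± 0.15 and Crtc2, a coactivator of CREB, by 0.34 ± 0.07. Of 8 measured partners and corepressors of the members 2 were called higher and 1 lower. Hdac7, a histone deacetylase that represses Nr4a1 in thymocytes, rose by 0.90 ± 0.09, Nab1, a corepressor of EGR proteins, rose by 0.46 ± 0.08, and Rxra, which encodes a retinoid receptor that pairs with NR4A1 and NR4A2, was at -0.64 ± 0.19.

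Genes linked to the members downstream were called about as often as all genes (38.1% in either direction), but their calls were mostly higher. For the whole set of genes the directions were nearly even, at 18.3% higher and 19.8% lower over both genotypes. Of 20 genes linked to EGR2 and EGR3 in T cell tolerance 8 were called higher and 1 lower, with a median of 0.20. The calmodulin-binding protein gene Nrgn rose by 1.52 ± 0.13, the neuritin gene Nrn1 by 1.13 ± 0.15 and Tnfsf11, which encodes RANKL, by 0.80 ± 0.11. Of 18 genes linked to NR4A factors in dysfunctional and regulatory T cells 7 were called higher and 1 lower, with a median of 0.64. The inhibitory receptor gene Ctla4 rose by 2.26 ± 0.16, Tox2 by 1.49 ± 0.24 and Nt5e, which encodes the ectoenzyme CD73, by 0.75 ± 0.13. Between TFH KO and TFH WT no gene of these lists was called, and the medians were -0.08 for the EGR-linked and -0.21 for the NR4A-linked genes against 0.0011 over all genes. In the same comparison 14 of 14 TFH markers were lower in TFH KO in the estimate (median -0.46), and 17 of 19 B cell markers (median 0.70), 24 of 26 myeloid markers (median 0.31) and 15 of 15 CD8 and NK markers (median 0.56) were higher, with none called. Their part in these medians was not tested.

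**Figure D5:**
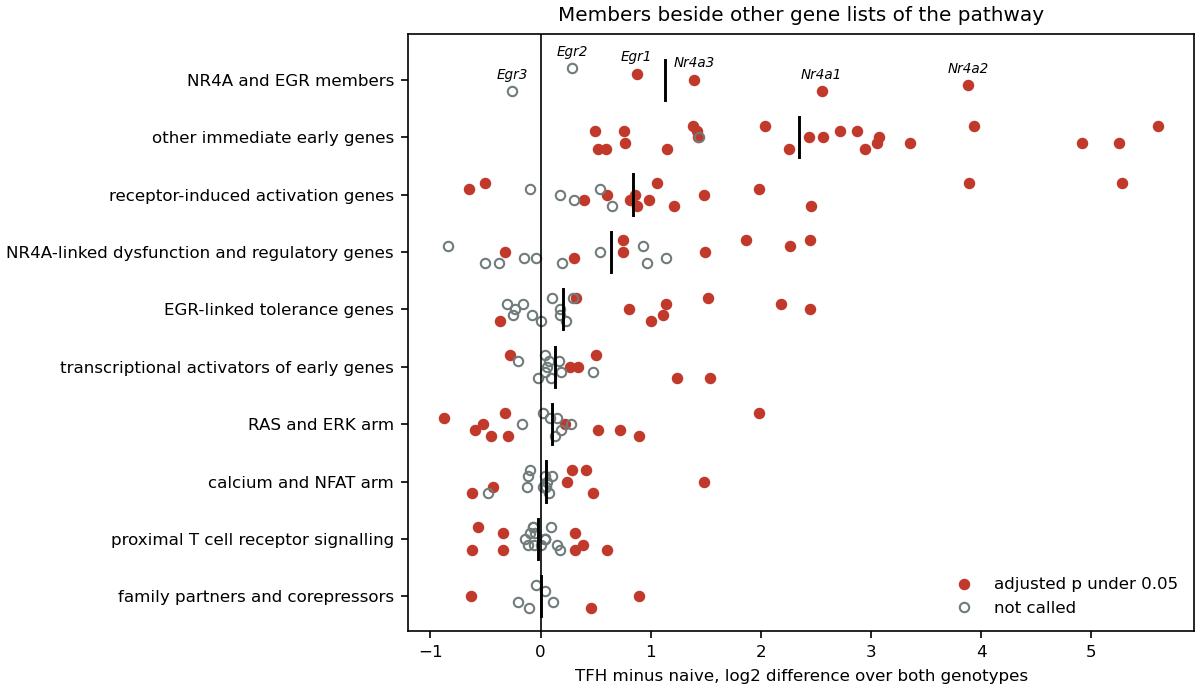
TFH minus naive log2 difference over both genotypes for each member and each measured gene of 9 lists, filled where the limma adjusted p was below 0.05, with the list's median as a black line. The members spread from -0.26 for Egr3 to 3.88 for Nr4a2, all 24 immediate early genes lie above 0 with a median of 2.34, and signalling genes lie around 0.

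Handling and heat also induce such genes, and most but not all heat shock genes were higher in TFH-labelled libraries. Of 12 heat shock genes 8 were called higher over both genotypes and none lower, with a median of 0.58. They summed to 298623 to 335008 in TFH KO, 355590 to 393932 in TFH WT, 187491 to 203659 in naive KO and 224740 to 256729 in naive WT libraries, so no TFH-labelled library was as low as a naive-labelled one. TFH cells were recovered from recipients, which the labels do not say of the naive cells, so transfer, recovery from a host and cell state cannot be told apart, and the part of stress in the members' rise was not tested. Between TFH KO and TFH WT libraries 11 of 12 heat shock genes were lower in KO in the estimate, with a median of -0.28 and none called. The inducible HSP70 genes Hspa1a and Hspa1b, near-identical copies named after their values were seen, differed most. Hspa1a was 4.64 and 5.71 in TFH KO, 8.58 and 9.17 in TFH WT, 2.64 and 2.93 in naive KO and 7.999 and 11.97 in naive WT libraries. Both KO libraries lay below both WT libraries on either label, with a KO minus WT difference of -3.70 ± 1.42 between TFH and -7.20 ± 1.42 between naive libraries. Hspa1b differed by -3.87 ± 1.38 and -6.53 ± 1.38 in the same comparisons. None of these 4 differences was called by limma.

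The genes most like each member in pattern were those with the smallest root mean square difference from it over the 8 libraries, each gene centred on its own mean, among 10071 genes. For Nr4a1 they were Csrnp1 (0.06), a nuclear protein gene, the proteasome-linked stress gene Zfand2a (0.08) and Cd69 (0.09), which had TFH minus naive differences of 2.54, 2.54 and 2.46. For Nr4a2 they were the salt-inducible kinase gene Sik1 (0.19), the autophagy regulator gene Trp53inp2 (0.28) and Irs2, an adaptor of the insulin receptor (0.28), with differences of 3.73, 3.75 and 3.65. For Nr4a3 they were the splicing factor gene Tra2a (0.15), the histone demethylase gene Kdm6b (0.15) and Msh5 (0.17).

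Egr1 was closest to Hirip3 (0.09), to Cd274, which encodes PD-L1 (0.09), and to the elongation factor gene Ell2 (0.10). Egr2 was closest to the adaptor gene Samsn1, to Ccdc50 and to the calcium-binding protein gene S100a11 at 0.11 each, and Egr3 to the nuclear envelope protein gene Nrm (0.09), the myosin gene Myo7a (0.10) and the fatty acid transporter gene Slc27a1 (0.10). Among the members themselves the closest pair was Nr4a3 and Egr1 at 0.34, and the farthest Nr4a2 and Egr3 at 2.08. This measure is a description over 8 libraries that share the contrast of the labels.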

How the data were processed

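Per the labels' protocols, libraries were made from mRNA with total RNA as input and read single-end at 51 bp. BWA and mm10 are named in the submitters' processing notes, with no version. How reads were counted, filtered and normalized is not given in the sources at hand. Each library has a table of log2 values deposited by the authors, from 1.16 to 19.48. The sorted values differ between libraries by at most 0.03 above the lowest percentile, so they had been quantile normalized, and depth cannot be recovered.

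Members and gene lists were chosen with earlier results of these data known. All 8 libraries and 14042 genes entered 1 linear model with a mean per group (limma 3.58.1, R 4.3.3), with moderation by mean-variance trend and the robust option and Benjamini-Hochberg adjustment over all genes. 6 comparisons were made. The labels give no replicate numbers and do not say whether a group's libraries are separate animals. Xist and Ddx3y separate the naive KO libraries as different animals, and for the other groups p-values may measure only technical spread. With 2 against 2 libraries the smallest two-sided p of an exact permutation test is 0.333.

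Named genes were the members, up to 3 called genes per list by p over both genotypes, and the 3 genes nearest to each member in pattern; 1 gene that the rule names is not reported here. The erythroid list had 5 measured genes of 12, none called, and of 14 TFH markers 8 were called higher and 1 lower, of 13 naive markers 1 higher and 7 lower, and of 15 T cell identity markers 1 higher and 6 lower over both genotypes. Positions and sequences are RefSeq and GENCODE vM21 on GRCm38, the build that mm10 names. Alternatives are given at the end.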

Additional observations from a re-analysis of the deposited data

How the results depend on the processing

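Of 708 recomputed member differences, 648 kept their direction and their side of the threshold, 7 calls were lost, 7 were gained and 46 changed sign; none of those 46 was called before or after. The calls of Nr4a1, Nr4a2 and Nr4a3 between the labels held under every alternative run, over both genotypes within 2.46 to 2.77, 2.22 to 4.13 and 0.92 to 1.62, as did that of Egr1 over both genotypes (0.63 to 1.39). No paired analysis was possible because the labels give no replicate numbers. Library weights were equal within each group, which is fixed by the design: 2 libraries lie equally far from their own mean. The weights therefore cannot mark 1 replicate of a group as the poorer.

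With single libraries left out, called genes numbered 1991 to 3726 for TFH WT against naive WT, 1399 to 2683 for TFH KO against naive KO, 0 to 2 for TFH KO against TFH WT, 7 to 17 for naive KO against naive WT and 1 to 7 for the interaction. TFH minus naive in WT ranged from 0.66 to 1.07 for Egr1 and from 0.12 to 0.88 for Egr2. In KO it ranged from 0.61 to 1.15 for Egr1, from -0.12 to 0.28 for Egr2 and from -0.49 to 0.10 for Egr3. Over both genotypes it ranged from 0.10 to 0.48 for Egr2, called without naive WT replicate 1, and from -0.40 to -0.11 for Egr3, called without TFH KO replicate 2. KO minus WT in TFH-labelled libraries ranged from -0.28 to 0.32 for Nr4a2, from -0.23 to 0.31 for Egr1 and from -0.0887 to 0.50 for Egr3. In naive-labelled libraries it ranged from -0.0598 to 0.0384 for Nr4a1, from -0.0828 to 0.14 for Egr1, from -0.20 to 0.55 for Egr2 and from -0.0305 to 0.19 for Egr3. The interaction ranged from -0.21 to 0.31 for Nr4a3, from -0.26 to 0.29 for Egr1 and from -0.17 to 0.42 for Egr3.

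Without replicate 2 of both TFH groups, 2104 genes were called in WT and 1225 in KO. Egr2 in KO was then -0.10 and Egr3 over both genotypes was called at -0.40. KO minus WT in TFH-labelled libraries was -0.0906 for Nr4a2, -0.0238 for Egr1 and -0.10 for Egr3, and the interaction was -0.0506 for Egr1 and -0.18 for Egr3. Without replicate 1 of both, 2300 genes were called in WT and 1 for the interaction, Egr3 in KO was 0.10 and the interaction for Nr4a3 was -0.19.

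Centred on 80 ribosomal protein genes, 1822 genes were called in KO and 1 for the interaction, Egr1 was not called in WT (0.86, adjusted p = 0.0571) or KO (0.94, adjusted p = 0.0574), and naive KO minus naive WT was -0.0035 for Egr1. Centred on T cell identity markers, Egr3 in KO was 0.0399, Egr2 over both genotypes was called at 0.51, naive KO minus naive WT was 0.0191 for Nr4a1 and 1 gene was called for the interaction. With compared groups only, 1 gene was called between TFH KO and TFH WT, and without the mean-variance trend 0 for the interaction, where 614 had an unadjusted p below 0.05 by limma.

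With B cell level added to the model, KO minus WT was -0.085 for Nr4a2 and -0.0679 for Egr1 in TFH-labelled and 0.0014 for Nr4a1 and -0.0583 for Egr1 in naive-labelled libraries, and the interaction was -0.0096 for Egr1. With the myeloid level, chosen after seeing the data, 2135 genes were called in WT and 3218 over both genotypes. Egr2 was called at 1.21 in WT and 0.84 over both genotypes, and Egr3 was 0.10 in WT, 0.0377 in KO and 0.0704 over both. KO minus WT in TFH-labelled libraries was -0.0452 for Nr4a2 and -0.10 for Egr1, and the interaction was -0.0798 for Nr4a3, -0.29 for Egr1 and -0.0653 for Egr3. The cause of these changes was not tested. Depth is unknown, so how far it limits the low values of Nr4a2 in naive-labelled libraries cannot be given.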
